A study of Mus musculus with 20 samples.

Results

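ISL1 was profiled in libraries labelled ISL1_26 and ISL1_70, and the peak list of the ISL1_26 library was compared here with the 3 lists of ISL1_70. These are 4 of the 20 CUT&Tag libraries of the series: ISL1_26 replicate 1 and ISL1_70 replicates 1, 2 and 3. All 4 were made from ganglia of C57BL/6J mouse embryos of age E11.5, in a tissue labelled CVG, and carry the same antibody label, ISL1. No label explains the numbers 26 and 70, names a genetic change or treatment, or says whether libraries came from separate embryos, so the spread between them may be technical. In CUT&Tag an antibody brings a transposase to chromatin, and the DNA cut beside the bound protein is sequenced.

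Members were the peaks on chromosomes 1 to 19 and X. In each library the best 10000 peaks were taken by the q-value, with ties broken by fold enrichment, so that each library entered with the same number. Best peaks sharing 1 bp or more were joined into regions. Of 33159 regions, 6246 held a best peak of ISL1_26 and none of ISL1_70 (class ISL1_26 only). A further 799 held best peaks of 2 or more ISL1_70 libraries and none of ISL1_26 (class ISL1_70 only). Another 1543 held best peaks of ISL1_26 and of 2 or more ISL1_70 libraries (class both). The others were 2166 regions with ISL1_26 and 1 ISL1_70 library and 22405 regions of a single ISL1_70 library. The class of ISL1_26 rests on 1 library and that of ISL1_70 on at least 2, so the classes are not matched in replication; matched sets are given below beside them.

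ISL1 is a transcription factor of the LIM-homeodomain family, in which a homeodomain reads short AT-rich DNA and LIM domains bind cofactors such as LDB1. It is made in young sensory and motor neurons and takes part in their specification, and in sensory neurons it acts beside the POU-domain factor POU4F1. Inner ear biologists use CVG for the cochleovestibular ganglion, whose neurons carry hearing and balance signals to the brain. H3K27ac marks active enhancers and promoters, H3K4me3 marks active promoters, and H3K27me3 marks genes held silent by Polycomb proteins.

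The promoters of the leading regions whose summit fell inside a RefSeq promoter window show the DNA under a peak of each class. Windows run from 250 bases before a gene start to 50 after it, on assembly GRCm38.p6 (the primary chromosomes of mm10), and are printed 5′ to 3′ on the strand of the gene with CTAATG matches in capitals (written CATTAG where the match is on the other strand). CTAATG is a homeodomain-type sequence. The ISL1_26 only class gives Vmac (chr17:56716872-56717171, minus strand) and Mtrf1l (chr10:5823894-5824193, minus strand). The ISL1_70 only class gives Shb (chr4:45530779-45531078, minus strand), which encodes a signalling adaptor, and AU021063 (chr15:101220997-101221296, plus strand). The class both gives Prkg1 (chr19:31764984-31765283, minus strand), which encodes a cGMP-dependent protein kinase, and Gm52797 (chr5:150131123-150131422, minus strand). They are shown because they are the highest-ranked promoters of their class, not for what they contain.
Vmac: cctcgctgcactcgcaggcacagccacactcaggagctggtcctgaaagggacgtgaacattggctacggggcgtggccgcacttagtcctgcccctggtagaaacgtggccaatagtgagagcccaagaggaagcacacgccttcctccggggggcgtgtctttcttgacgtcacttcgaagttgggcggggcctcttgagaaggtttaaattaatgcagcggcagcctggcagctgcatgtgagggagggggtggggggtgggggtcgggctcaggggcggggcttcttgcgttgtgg
Mtrf1l: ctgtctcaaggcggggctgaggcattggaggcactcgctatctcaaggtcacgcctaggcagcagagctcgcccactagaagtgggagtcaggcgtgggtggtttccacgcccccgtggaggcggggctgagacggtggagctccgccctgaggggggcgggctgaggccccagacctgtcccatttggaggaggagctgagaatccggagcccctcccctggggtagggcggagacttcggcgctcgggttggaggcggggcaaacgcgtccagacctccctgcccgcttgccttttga
Shb: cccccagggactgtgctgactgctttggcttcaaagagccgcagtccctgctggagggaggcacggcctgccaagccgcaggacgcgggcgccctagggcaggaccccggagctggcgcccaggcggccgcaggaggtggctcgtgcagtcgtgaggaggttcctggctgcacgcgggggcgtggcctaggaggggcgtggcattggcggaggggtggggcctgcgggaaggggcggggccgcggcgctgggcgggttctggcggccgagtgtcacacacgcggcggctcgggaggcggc
AU021063: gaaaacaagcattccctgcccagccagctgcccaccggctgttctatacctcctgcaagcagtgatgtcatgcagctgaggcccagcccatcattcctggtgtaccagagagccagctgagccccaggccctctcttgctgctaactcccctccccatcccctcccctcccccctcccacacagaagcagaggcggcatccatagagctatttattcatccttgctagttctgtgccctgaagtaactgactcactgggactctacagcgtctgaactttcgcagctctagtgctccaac
Prkg1: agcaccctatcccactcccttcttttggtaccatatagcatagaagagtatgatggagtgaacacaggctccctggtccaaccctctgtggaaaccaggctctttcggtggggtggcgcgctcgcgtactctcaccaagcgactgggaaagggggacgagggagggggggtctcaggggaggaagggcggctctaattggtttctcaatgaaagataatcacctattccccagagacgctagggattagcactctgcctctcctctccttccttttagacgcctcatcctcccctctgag
Gm52797: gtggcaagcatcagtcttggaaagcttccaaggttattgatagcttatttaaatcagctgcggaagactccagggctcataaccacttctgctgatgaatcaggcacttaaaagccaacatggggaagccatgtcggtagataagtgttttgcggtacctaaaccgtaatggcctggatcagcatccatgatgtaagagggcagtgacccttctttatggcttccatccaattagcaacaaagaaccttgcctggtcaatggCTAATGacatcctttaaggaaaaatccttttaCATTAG

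Of these 6 windows, the 5 other than Gm52797 held no match on either strand to CTAATG, to TAATTA or to the spaced pair of TAAT and ATTA with any 3 bases between them, and Gm52797 held 2 matches to CTAATG. Ranks given here are those of the best peak of each library in the region. Only the best-ranked summit of a region had to lie in the window. The Prkg1 region held one of the best 200 peaks of every library, at rank 28 in ISL1_26 and ranks 34, 114 and 8 in ISL1_70 replicates 1 to 3. The Gm52797 region ranked 218 in ISL1_26 and 737, 53 and 167 in ISL1_70. The Vmac region ranked 553 in ISL1_26, and the full lists of ISL1_70 replicates 1 and 3 held a peak there at ranks 26498 and 18232. The Mtrf1l region ranked 596 in ISL1_26 and 10853 in ISL1_70 replicate 3, just below the best 10000. Shb ranked 1076, 1292 and 1891 in ISL1_70 with no peak in the full ISL1_26 list, while AU021063 ranked 956, 1545 and 4379 with an ISL1_26 peak at rank 14246. The Vmac and Mtrf1l windows had 62.3% and 67.3% G and C, Shb 75.0%, AU021063 57.0%, Prkg1 55.3% and Gm52797 44.0%.

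The lists differ in length and strength before any overlap is taken. They held 95533 peaks for ISL1_26 and 79983, 24345 and 41191 for ISL1_70 replicates 1 to 3. The 10000th peak had a −log10 q of 33.9 in ISL1_26 and in ISL1_70 replicate 1, against 78.3 and 143 in ISL1_70 replicates 2 and 3. The median width of the best 10000 was 688 bp in ISL1_26 and 642 bp in ISL1_70 replicate 1, against 393 and 400 bp in replicates 2 and 3. By these measures ISL1_26 and ISL1_70 replicate 1 were alike, and ISL1_70 replicates 2 and 3 stood apart from both. The part these differences play in the results below was not tested, and read totals are not in the lists, so the depth behind each list is unknown.

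The tissue label was checked by H3K27ac at gene ends in at least 2 of its 3 libraries, which all protein-coding genes showed in 50.6% of cases. Of the inner ear and sensory neuron transcription factors 20 of 25 had it, and of the neuronal cytoskeleton and synapse genes 19 of 22. The other neuronal lists were nearer to all genes, with 11 of 16 neurotrophin, 15 of 25 axon guidance and 9 of 19 LIM genes. Of markers of other cells, the mark was at 5 of 14 Schwann cell and neural crest genes, 8 of 17 otic epithelium and hair cell genes, 6 of 14 mesenchyme genes, 3 of 12 endothelium and blood genes and 3 of 13 genes of muscle, heart, gut and liver. H3K27me3, at 20.9% of all genes, was at 50% to 64.0% of each of the 5 neuronal lists (16 of 25 transcription factors, 12 of 22 cytoskeleton and synapse genes) and at 41.7% to 92.9% of those other lists. The library labelled H3K4me3 replicate 1 goes against its label: it had peaks at an end of 20 of 20 Hox genes and 0 of 15 housekeeping genes, as H3K27me3 replicates 2 and 3 did. H3K4me3 replicate 2 had peaks at 4 Hox and 13 housekeeping genes and is the one used below. Values of the library labelled replicate 1 are given beside the shares by class and by library. H3K27me3 replicate 1 had peaks at 15 Hox and 6 housekeeping genes, and H3K27me3 is counted where at least 2 of its 3 libraries have a peak.

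ISL1_26 overlapped ISL1_70 replicate 1 more than any pair of ISL1_70 libraries overlapped each other. At 10000 peaks each, a mean of 28.8% of the peaks of ISL1_26 and ISL1_70 replicate 1 overlapped the other list. For ISL1_26 the share was 16.3% with ISL1_70 replicate 2 and 13.2% with replicate 3. Within ISL1_70 it was 15.4% for replicates 1 and 2, 12.3% for replicates 1 and 3 and 8.04% for replicates 2 and 3. In each library the mean share with the other 3 libraries was 19.5% for ISL1_26 and 18.8%, 13.2% and 11.2% for ISL1_70 replicates 1 to 3, a mean of 14.4% ± 3.96 (SD, n = 3) for ISL1_70. ISL1_26 was 5.03 points above that mean, with an exact permutation p of 0.5 (two-sided). With 1 library against 3 there are 4 arrangements, so no p can be below 0.25.

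**Figure D1:**
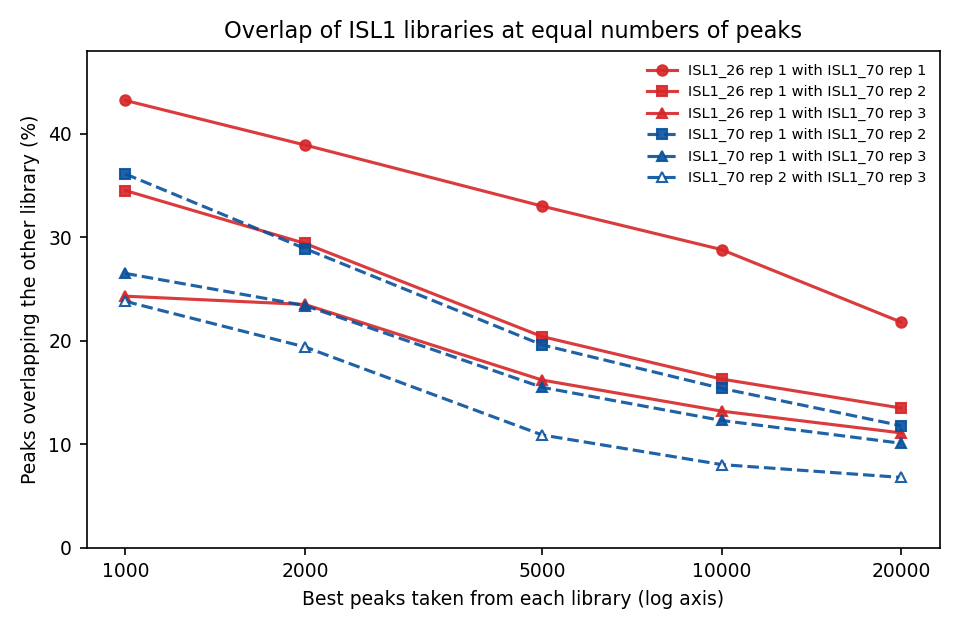
Share of peaks that overlap the other library (vertical axis, percent, mean of both directions) against the number of best peaks taken from each library (horizontal log axis). Red solid lines are ISL1_26 with each ISL1_70 library and blue dashed lines are pairs within ISL1_70; at 10000 peaks ISL1_26 with ISL1_70 replicate 1 stands at 28.8% and the other 5 pairs between 8.04% and 16.3%.

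The order of the pairs was nearly the same from 1000 to 20000 peaks. ISL1_26 with ISL1_70 replicate 1 was the highest pair at each of the 5 numbers tried, at 43.2% for the best 1000, 33.0% for 5000 and 21.8% for 20000. ISL1_70 replicates 2 and 3 were the lowest pair at each, at 23.8%, 10.9% and 6.80%. Mean overlap of ISL1_26 with ISL1_70 was 34.0% ± 9.46 (SD over 3 pairs that share ISL1_26) for the best 1000 and 15.5% ± 5.63 for the best 20000, and within ISL1_70 it was 28.8% ± 6.46 and 9.57% ± 2.53. Shared places were ranked alike to a limited degree: across the 2854 regions shared by ISL1_26 and ISL1_70 replicate 1 the Spearman correlation of ranks was 0.397. It ran from 0.305 to 0.427 over the 6 pairs, as a description across regions, which are not independent replicates. Summits of overlapping peaks lay a median of 144, 143 and 152.5 bp apart between ISL1_26 and ISL1_70 replicates 1 to 3, within the range of 139 to 156 bp inside ISL1_70.

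The class both made up 15.5% of the 9955 regions with an ISL1_26 peak and 65.9% of the 2342 regions replicated in ISL1_70. Among the best 5000 the counts were 2857 for ISL1_26 only, 471 for ISL1_70 only and 959 for both, and among the best 20000 they were 13913, 1505 and 2419. The share of replicated ISL1_70 regions that ISL1_26 also held was 60.3%, 67.1%, 65.9% and 61.6% at 1000, 5000, 10000 and 20000 peaks. All 4 libraries held a best peak in 547 regions. ISL1_70 replicate 1 was in 1453 of the 1543 regions of the class both and in 696 of the 799 of ISL1_70 only. Of the 2166 regions that ISL1_26 shared with 1 library, 1404 were shared with ISL1_70 replicate 1, 411 with replicate 2 and 351 with replicate 3. Without ISL1_70 replicate 1 the class ISL1_70 only held 181 regions and the class both 636.

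Strong ISL1_26 peaks were mostly shared and weak ones mostly were not. Of the first 1000 ISL1_26 peaks, 60.2% lay in the class both, 25.5% were shared with 1 ISL1_70 library and 14.3% were ISL1_26 only. Of the peaks at ranks 2001 to 3000 these shares were 18.7%, 31.0% and 50.3%, and at ranks 9001 to 10000 they were 4.7%, 14.8% and 80.5%. The class ISL1_26 only had a median rank of 6032.5 in ISL1_26, against 1480 for the class both. The ISL1_70 only class was also of middle rank in its own libraries, with medians of 4245.5, 3576 and 3002.5 in replicates 1 to 3, against 1423, 1074 and 1136 for the class both.

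**Figure D2:**
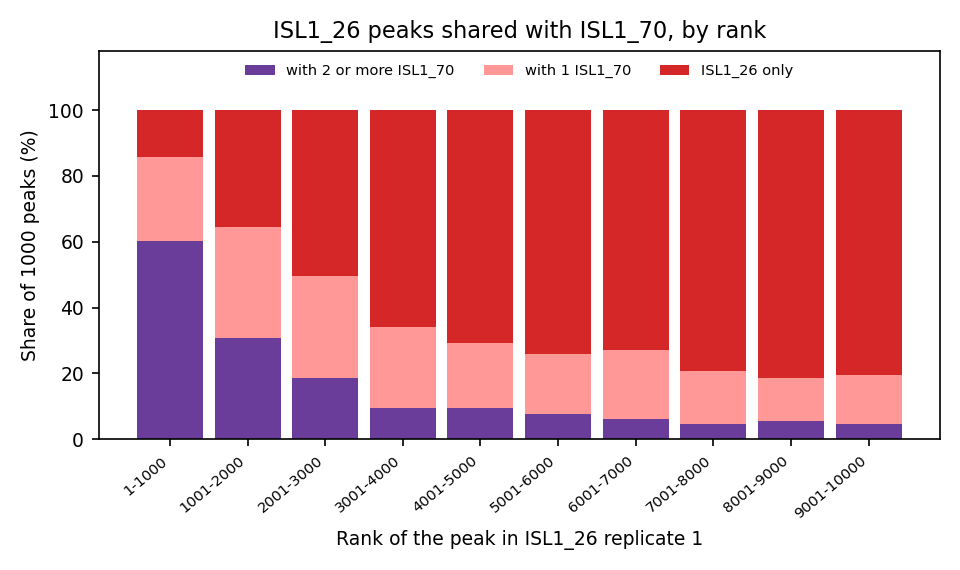
Share of ISL1_26 peaks (vertical axis, percent) that are shared with 2 or more, 1 or no ISL1_70 library, for successive sets of 1000 peaks by rank in ISL1_26 (horizontal axis). The share found in ISL1_26 only goes from 14.3% of the first 1000 peaks to 80.5% of the last 1000.

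Being absent from the best 10000 was not the same as being absent. Of the 6246 ISL1_26 only regions, 1958 (31.3%) overlapped a peak outside the best 10000 in the full list of at least 1 ISL1_70 library. In replicate 1 there was one at 1371 (22.0%). A lower rank is not always a weaker q-value, since the 10000th peak had a −log10 q of 143 in ISL1_70 replicate 3 and 33.9 in ISL1_26. Of the 799 ISL1_70 only regions, 417 (52.2%) overlapped a peak in the full ISL1_26 list, leaving 382. Peaks found in a single library are the matched set for ISL1_26 only. They were 62.5% of the best peaks of ISL1_26 and 64.0%, 78.0% and 82.1% of those of ISL1_70 replicates 1 to 3. Full lists of the other 3 libraries held a peak at 31.3% of them for ISL1_26 and at 30.7%, 17.7% and 14.0% for ISL1_70 replicates 1 to 3. In both counts ISL1_26 lay beside ISL1_70 replicate 1.

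Regions of the class both carried H3K27ac most often. H3K27ac was counted where at least 2 of its 3 libraries had a peak within 100 bp of the summit. It lay at 67.1% of the class both (95% Wilson interval 64.8 to 69.4), 54.7% of ISL1_70 only (51.2 to 58.1) and 33.1% of ISL1_26 only (31.9 to 34.2). These intervals and the Newcombe intervals of differences cover counting error only. POU4F1 replicate 1 followed the same order, at 24.0% (21.9 to 26.2), 13.3% (11.1 to 15.8) and 8.02% (7.37 to 8.72), while POU4F1 replicate 2 was at 1.94%, 1.75% and 1.91%. No peak of H3K27ac, H3K27me3 or H3K4me3 lay at the summit in 12.1% of the class both, 19.1% of ISL1_70 only and 38.8% of ISL1_26 only. Regions of the 3 classes differed in width in the same order, with medians of 1504, 938 and 593 bp, and their part in these shares was not tested beyond the fixed windows at the summit.

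Promoter and Polycomb marks followed another order. H3K4me3 replicate 2 lay at 14.0% of ISL1_70 only (11.8 to 16.6), 7.25% of ISL1_26 only (6.64 to 7.92) and 5.12% of the class both (4.13 to 6.34). In the library labelled H3K4me3 replicate 1 the shares were 5.76%, 6.02% and 1.43%. H3K27me3 in at least 2 libraries lay at 5.63%, 4.50% and 0.778% of the 3 classes, and at 1 of the 547 regions held by all 4 libraries. Parts of these orders changed with the number of peaks. Among the best 20000, H3K4me3 replicate 2 lay at 14.0% of ISL1_70 only, 5.13% of ISL1_26 only and 7.15% of the class both. Among the best 5000, H3K27me3 in at least 2 libraries lay at 3.18%, 3.57% and 0.417% in the same order of classes. ISL1_26 only minus ISL1_70 only was −21.6 points for H3K27ac (95% Newcombe interval −25.2 to −18), −6.76 points for H3K4me3 replicate 2 (−9.42 to −4.43) and −5.25 points for POU4F1 replicate 1 (−7.86 to −2.96). For H3K27me3 the difference was −1.13 points (−3.02 to 0.365).

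**Figure D3:**
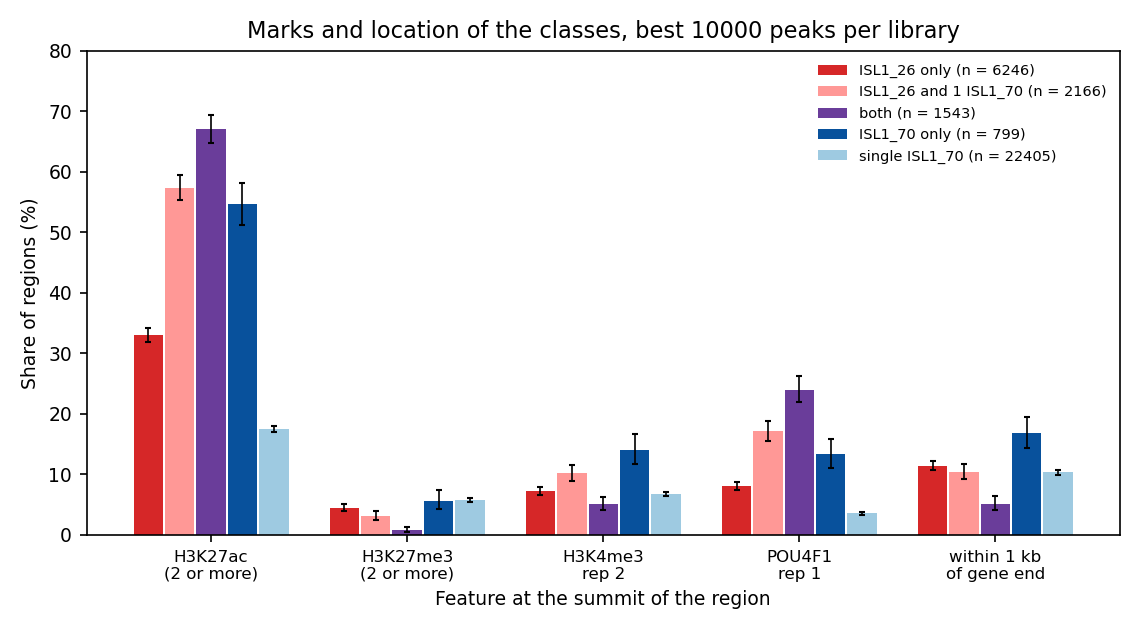
Share of regions (vertical axis, percent) with a mark at the summit or within 1 kb of a gene end, for the 5 classes of regions at 10000 best peaks per library; bars start at 0 and error lines are 95% Wilson intervals, which cover counting error only. H3K27ac is at 67.1% of the class both, 54.7% of ISL1_70 only and 33.1% of ISL1_26 only.

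These differences between ISL1_26 only and ISL1_70 only changed with the libraries used and the number of peaks taken. Without ISL1_70 replicate 1 ISL1_26 only minus ISL1_70 only was −0.444 points for H3K27ac, −1.47 points for POU4F1 replicate 1 and 5.32 points for H3K4me3 replicate 2, the last with the opposite sign. With H3K27ac replicate 2 or 3 left out, so that both remaining libraries had to hold a peak, the H3K27ac difference was −2.47 or −2.39 points. A peak of H3K27ac replicate 1 was then required, a list of 8827 peaks against 106618 and 168124 in replicates 2 and 3. By H3K27ac replicate 2 or 3 alone the difference was −21.2 or −20.4 points. Among the best 1000 peaks the difference for H3K27ac in at least 2 libraries was −10.3 points, and POU4F1 replicate 1 had the opposite sign at 2.89 points. Within ISL1_70 only, H3K4me3 replicate 2 lay at 72 of the 339 regions held by replicates 1 and 2 alone (21.2%), 35 of the 275 held by replicates 1 and 3 (12.7%), 4 of the 103 held by replicates 2 and 3 (3.88%) and 1 of the 82 held by all 3 (1.22%). H3K27ac lay at 58.4%, 59.3%, 24.3% and 62.2% of the same sets.

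Regions held by exactly 2 libraries allow a comparison at equal replication, between ISL1_26 and ISL1_70 or within ISL1_70. H3K27ac lay at 61.0%, 52.8% and 48.4% of the regions that ISL1_26 shared with ISL1_70 replicate 1, 2 or 3 alone. Within ISL1_70 it lay at 58.4%, 59.3% and 24.3%. The values of ISL1_26 with replicates 2 and 3 fell inside the range within ISL1_70, and that with replicate 1 lay just above it. POU4F1 replicate 1 lay at 19.2%, 16.3% and 9.97% of the 3 sets with ISL1_26 and at 61 of 339 (replicates 1 and 2), 8.73% and 8.74% of those within ISL1_70. H3K4me3 replicate 2 lay at 162 of 1404, 35 of 411 (8.52%) and 23 of 351 (6.55%) with ISL1_26 and at 21.2%, 12.7% and 3.88% within ISL1_70. The sets within ISL1_70 held 339, 275 and 103 regions.

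Library by library, ISL1_26 lay inside the range of ISL1_70 for H3K27ac and H3K27me3 in at least 2 libraries and for H3K4me3 at the best 10000 peaks. Among the best 10000 peaks, H3K27ac in at least 2 libraries lay at 43.6% for ISL1_26 and 45.1%, 23.2% and 17.4% for ISL1_70 replicates 1 to 3, a mean of 28.6% ± 14.6 (SD, n = 3). These shares come from H3K27ac replicates 2 and 3, since H3K27ac replicate 1 lay at 3.81% of ISL1_26 peaks and 7.13%, 2.25% and 1.23% of ISL1_70 peaks. Without H3K27ac replicate 2 the values were 3.30% for ISL1_26 and a mean of 3.08% for ISL1_70, and without replicate 3 they were 3.36% and 3.16%. Among the best 20000 peaks ISL1_26 was above all 3 ISL1_70 libraries, at 31.9% against 31.1%, 17.1% and 13.5%. H3K27me3 in at least 2 libraries lay at 3.65% against 4.30%, 8.09% and 2.51%. H3K4me3 replicate 2 lay at 7.51% against 13.3%, 4.72% and 3.12%, and the library labelled H3K4me3 replicate 1 at 5.02% against 5.32%, 8.67% and 2.82%.

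On some features ISL1_26 lay outside the range of ISL1_70. POU4F1 replicate 1 lay at 12.4% of its best 10000 peaks, against 11.4%, 6.89% and 4.33%. The gap to replicate 1 was smaller than the spread inside ISL1_70, an SD of 3.61 points (n = 3). POU4F1 replicate 2 lay at 2.05% against 1.73%, 1.5% and 1.32%. Inside a gene and over 1 kb from its ends lay 46.8% against 45.7%, 43.6% and 42.5%. The exact permutation p of each of these last 2 was 0.25 (two-sided), the smallest possible, and neither is among the adjusted comparisons given with the single-library peaks. No histone list had a peak at 29.8% of ISL1_26 summits, below the 30.2%, 52.6% and 65.0% of ISL1_70.

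In peaks found in a single library, H3K27ac lay at 33.1% of those of ISL1_26 and at 35.3%, 12.3% and 8.5% of those of ISL1_70 replicates 1 to 3. POU4F1 replicate 1 lay at 8.02% against 6.56%, 2.78% and 1.94%, a difference of 4.26 points from the ISL1_70 mean with the smallest p the design allows (exact permutation p = 0.25, two-sided). H3K4me3 replicate 2 lay at 7.25% against 15.3%, 3.87% and 2.66%, the library labelled replicate 1 at 6.02% against 6.37%, 10.1% and 2.86%, and H3K27me3 at 4.50% against 5.39%, 9.57% and 2.60%. Over the 11 comparisons of libraries (overlap, and 5 features in both sets of peaks) the exact permutation p ran from 0.25 to 1, and each was 1 after Benjamini-Hochberg adjustment. A design of this size cannot show that ISL1_26 and ISL1_70 act alike or that they differ.

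**Figure D4:**
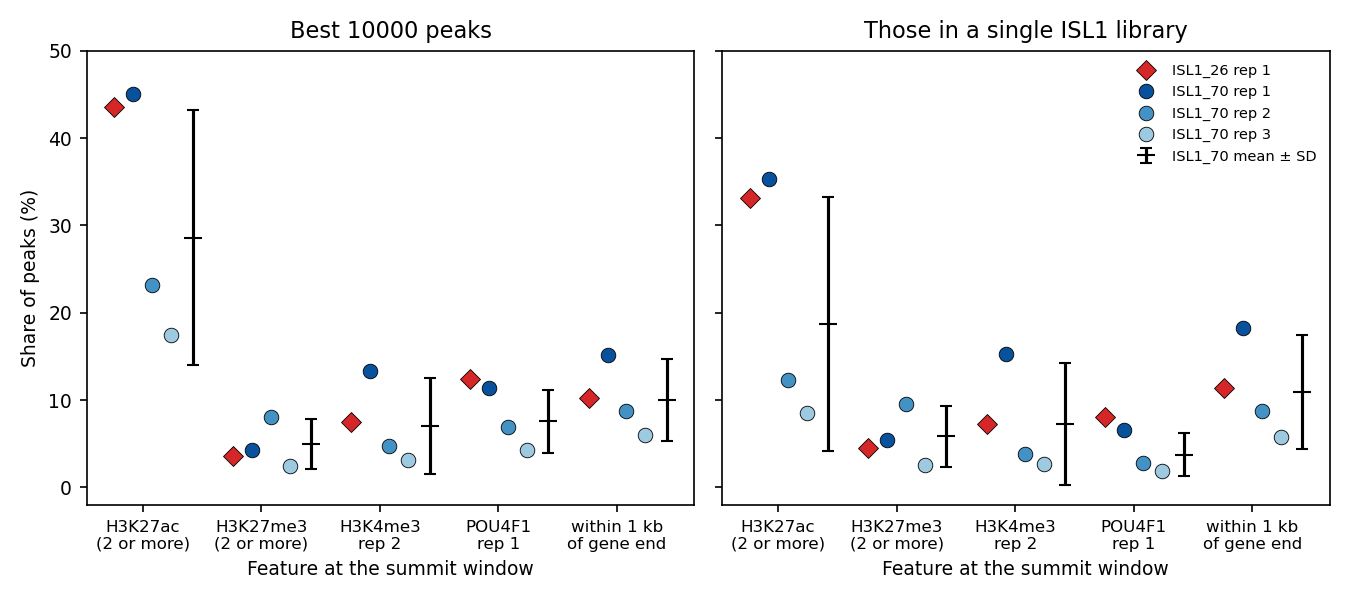
Share of peaks (vertical axis, percent) with each feature at the summit, for the best 10000 peaks of each library (left) and for those of them found in a single ISL1 library (right); diamonds are ISL1_26, circles ISL1_70 replicates 1 to 3, and the bar is the ISL1_70 mean ± SD (n = 3). ISL1_26 (43.6% with H3K27ac on the left) sits beside ISL1_70 replicate 1 (45.1%) and above replicates 2 and 3 (23.2% and 17.4%).

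Most regions of every class lay away from gene ends. Within 1 kb of either end of a protein-coding gene lay 5.18% of the class both (95% Wilson interval 4.19 to 6.41), 11.4% of ISL1_26 only (10.7 to 12.2) and 16.8% of ISL1_70 only (14.3 to 19.5). Inside a gene and over 1 kb from its ends lay 48.2%, 46.2% and 43.2%, and over 50 kb from any gene end lay 46.6%, 39.6% and 33.4%. The median distance to a gene end was 42.7, 30.2 and 22.6 kb. On chromosome X lay 0.389%, 1.36% and 0.876%.

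The order at gene ends depended on a library and on the number of peaks taken. ISL1_26 only minus ISL1_70 only was −5.34 points (Newcombe interval −8.19 to −2.78) at gene ends, but 3.7 points without ISL1_70 replicate 1, and both classes stood at 13.0% among the best 5000. By library, gene ends held 10.3% of the best peaks of ISL1_26 and 15.2%, 8.79% and 6.04% of those of ISL1_70 replicates 1 to 3. Chromosome X held 1.13% of ISL1_26 peaks, against 1.10%, 3.05% and 3.46%, so that ISL1_26 and ISL1_70 replicate 1 were again close.

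The leading regions of the class both were strong in all 4 libraries. The 8 with the best mean rank were all marked by H3K27ac in 2 libraries at the summit, 5 of them also had a POU4F1 replicate 1 peak there, and 5 lay over 50 kb from any gene end. The first (chr11:66834503-66837848) lay 75.0 kb from Pirt, which encodes a regulator of TRP channels of sensory neurons, and ranked 34 in ISL1_26 and 3, 3 and 6 in ISL1_70 replicates 1 to 3. The next (chr4:110124378-110130626) lay 78.1 kb from Elavl4, which encodes a neuronal RNA-binding protein, and ranked 6, 5, 6 and 39 in the same order. The region 94.0 kb from Unc5b (chr10:60924775-60926461), a netrin receptor gene of axon guidance, ranked 25, 6, 35 and 9. These 3 were among the best 40 peaks in each of the 4 libraries.

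The other 5 regions ranked 78 or better in each library. A region 294 kb from the metalloprotease gene Adamts16 ranked 7, 10, 9 and 33, and one 107 kb from Pcbd1 ranked 40, 7, 4 and 22. A region inside Pip4k2b, a lipid kinase gene, ranked 78, 2, 2 and 7. Inside Katnal2, which encodes a katanin-like ATPase, the ranks were 24, 39, 16 and 10. The last lay inside Matn2, a matrix protein gene, 0.834 kb from an end of 9430069I07Rik, at ranks 20, 12, 20 and 50. The authors' fold enrichment for the Pip4k2b peak was 29.9 in ISL1_26 and 354, 620 and 130 in the ISL1_70 lists, values that are not comparable between lists.

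The leading ISL1_26 only regions were weaker than those of the class both, began at rank 96, and were less often marked. H3K27ac in 2 or more libraries was at 2 of the 8, no H3K27ac at 3, and POU4F1 replicate 1 at 2. The full lists showed that 5 of the 8 had a weaker ISL1_70 peak. The first (chr2:67257391-67257853), 71.4 kb from Gm1322, had rank 96 in ISL1_26 and 49498 in ISL1_70 replicate 1. Inside Erbb4 (chr1:68424195-68424851), which encodes a neuregulin receptor, the rank was 129 in ISL1_26 and 18734 in ISL1_70 replicate 2. No ISL1_70 list had a peak at the regions nearest to Jade1 (chr3:41359669-41360822, rank 140), inside Kcnip4 (chr5:49449864-49450532, rank 210), a potassium channel subunit gene, or inside Dtx1 (chr5:120700777-120701785, rank 245), a gene of Notch signalling. The region nearest to Zeb2 (chr2:45947077-45949000, rank 237), 831 kb from the gene, had H3K27ac in 2 libraries, POU4F1 replicate 1 and an ISL1_70 replicate 1 peak at rank 13800. Those nearest to Muc4 (rank 241, inside Muc20) and Alcam (rank 250), a cell adhesion gene, also had ISL1_70 replicate 1 peaks, at ranks 46553 and 40322. The Muc4 region had a stronger one in ISL1_70 replicate 3, at rank 12849 with a −log10 q of 122.

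Leading ISL1_70 only regions included 3 that ranked high by q-value and had no histone mark at the summit. The first (chr12:97061432-97061792), 361 bp wide and 1141 kb from Galc, the nearest gene, ranked 4, 1 and 2 in ISL1_70 replicates 1 to 3 and was absent from the full ISL1_26 list. Its fold enrichment in the authors' lists was 11.8, 25.2 and 67.6. Inside Myo3a (chr2:22587288-22590189), a myosin gene of hair cells, the ranks were 17, 69 and 13, again with no ISL1_26 peak. The folds there were 54.5, 72.3 and 34.1. The region 25.8 kb from Col19a1 (chr1:24611539-24616177), a collagen gene, ranked 334, 8 and 1, with folds of 1.77, 4.07 and 25.9. The median fold of the best 10000 peaks was 24.6, 47.8 and 46.5 in the same lists, so high rank by q-value did not always go with high fold. The Col19a1 region held an H3K27ac replicate 1 peak, but not at the summit. No filter for places of high signal with any antibody was applied here, and what these 3 places have in common was not tested.

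The 5 regions after them carried H3K27ac in 2 libraries. The region 37.9 kb from Wdfy3 (chr5:102108628-102110556), an autophagy gene, ranked 228, 316 and 205 with no ISL1_26 peak. The other 4 had ISL1_26 peaks outside the best 10000. Inside Pde2a, a phosphodiesterase gene, the ranks were 891, 200 and 51 in ISL1_70 and 15859 in ISL1_26. Near Slc6a5, which encodes a glycine transporter, they were 51, 275 and 1001 with 17795. The region 71.0 kb from Chd7 (chr4:8939223-8940850), a chromatin remodeller needed for inner ear development, ranked 393, 526 and 544 in ISL1_70 and 39053 in ISL1_26. In all, 4 of the 8 leading ISL1_70 only regions had a peak in the full ISL1_26 list.

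The 4 genes with most ISL1_26 only regions were 353 to 1106 kb long, against a median of 17.3 kb over all genes. Auts2, a gene of 1106 kb, had 13 ISL1_26 only regions within 10 kb, and its best peaks numbered 24 in ISL1_26 and 18, 14 and 8 in ISL1_70 replicates 1 to 3. Ebf1, which encodes a transcription factor of developing neurons, had 11, with 16 best peaks in ISL1_26 and 7, 9 and 9 in ISL1_70. Zfp536 had 11 and Gse1 had 10, and their best peaks numbered 15 and 20 in ISL1_26 against 7, 4 and 4 and 16, 9 and 3 in ISL1_70. All 4 genes also had regions of the class both, 2, 4, 2 and 4 in the same order. For ISL1_70 only the most was 3, at Slc45a3, a gene of 20.1 kb, and at the longer Tacc2, Ppm1h and Zfp521. Dab1, which encodes an adaptor of reelin signalling, had 5 regions of the class both, and Phc2, Ctbp2 and Pcbp3 had 4 each.

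The genes of ISL1 and of POU4F1 themselves differed in how many peaks they had. Within 10 kb of Isl1 (chr13:116298270-116309688) no library had a best peak, and the full lists held 3 peaks for ISL1_26 and 1, 0 and 1 for ISL1_70 replicates 1 to 3. Within 10 kb of Pou4f1 (chr14:104461675-104468118) ISL1_26 had 4 best peaks and ISL1_70 had 2, 3 and 0. The best rank there was 353 in ISL1_26 and 119, 112 and 20879 in ISL1_70. The ISL1_26 peak at rank 353 (chr14:104456809-104457551) was an ISL1_26 only region 4.50 kb from the gene, with an ISL1_70 replicate 1 peak at rank 10307. A region of the class both at Pou4f1 held ranks 364, 119, 228 and 24239, so ISL1_26 shared this peak at the gene with ISL1_70 replicates 1 and 2.

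Lists of sensory neuron genes had best peaks of every library at higher shares than all genes did. In each library some other lists did too. Of 21631 protein-coding genes, 20.7% had a best peak of ISL1_26 within 10 kb, and 24.7%, 22.9% and 21.8% one of ISL1_70 replicates 1 to 3. By class these shares were 15.9% for ISL1_26 only, 2.9% for ISL1_70 only and 3.78% for the class both, and with the gene body alone they were 10.4%, 1.87% and 2.77%. Of 25 inner ear and sensory neuron transcription factors, 18 had a best peak of ISL1_26 and 18, 20 and 12 one of ISL1_70. Of 25 axon guidance and adhesion genes the numbers were 22 and 20, 17 and 18, of 22 neuronal cytoskeleton and synapse genes 16 and 13, 12 and 12, and of 16 neurotrophin and survival genes 10 and 10, 8 and 10. LIM homeobox genes and LIM cofactors, 19 genes that include ISL1 partners, had 11 and 8, 13 and 5. The last of these values, in ISL1_70 replicate 3, is 26.3%, near the 21.8% of all genes. None of the lists of other genes was above all genes in every library. Of 14 mesenchyme genes, 7 had a best peak of ISL1_70 replicate 2 and 7 one of replicate 3. The share in replicate 3 was above that of the transcription factors, 12 of 25. In replicate 2 it was 8 of 20 Hox, 7 of 17 otic and 5 of 13 muscle, heart, gut and liver genes. Schwann cell and cell cycle genes were below all genes in both replicates, and Hox and otic genes in replicate 3. The lists were chosen with earlier results known and are not matched for length: the median gene was 222 kb long in axon guidance, 51.3 kb in cytoskeleton and synapse, 11.4 kb in transcription factors and 17.3 kb over all genes.

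In 4 lists, mesenchyme, muscle to liver, endothelium and Hox, ISL1_26 and ISL1_70 replicate 1 had fewer genes with a best peak than ISL1_70 replicates 2 and 3. Of 14 mesenchyme genes 2 had a best peak of ISL1_26 and 1, 7 and 7 one of ISL1_70 replicates 1 to 3. For 13 genes of muscle, heart, gut and liver the numbers were 1 and 1, 5 and 4 (7.69% and 7.69%, 38.5% and 30.8%). For 12 endothelium and blood genes they were 1 and 1, 3 and 3 (8.33% and 8.33%, 25.0% and 25.0%). Of 20 Hox genes they were 2 and 2, 8 and 3, so the highest value was in ISL1_70 replicate 2, the library with the most H3K27me3 at its summits. The other 4 lists did not follow that order. Schwann cell and neural crest genes (14) had 4 and 2, 3 and 2 (28.6% and 14.3%, 21.4% and 14.3%). Otic epithelium and hair cell genes (17) had 6 and 3, 7 and 2 (35.3% and 17.6%, 41.2% and 11.8%). Cell cycle genes (15) had 2 and 5, 3 and 2 (13.3% and 33.3%, 20.0% and 13.3%). Housekeeping genes (15) had 2 and 5, 4 and 4 (13.3% and 33.3%, 26.7% and 26.7%). With so few genes in a list these counts are a description, and no test was made of them.

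**Figure D5:**
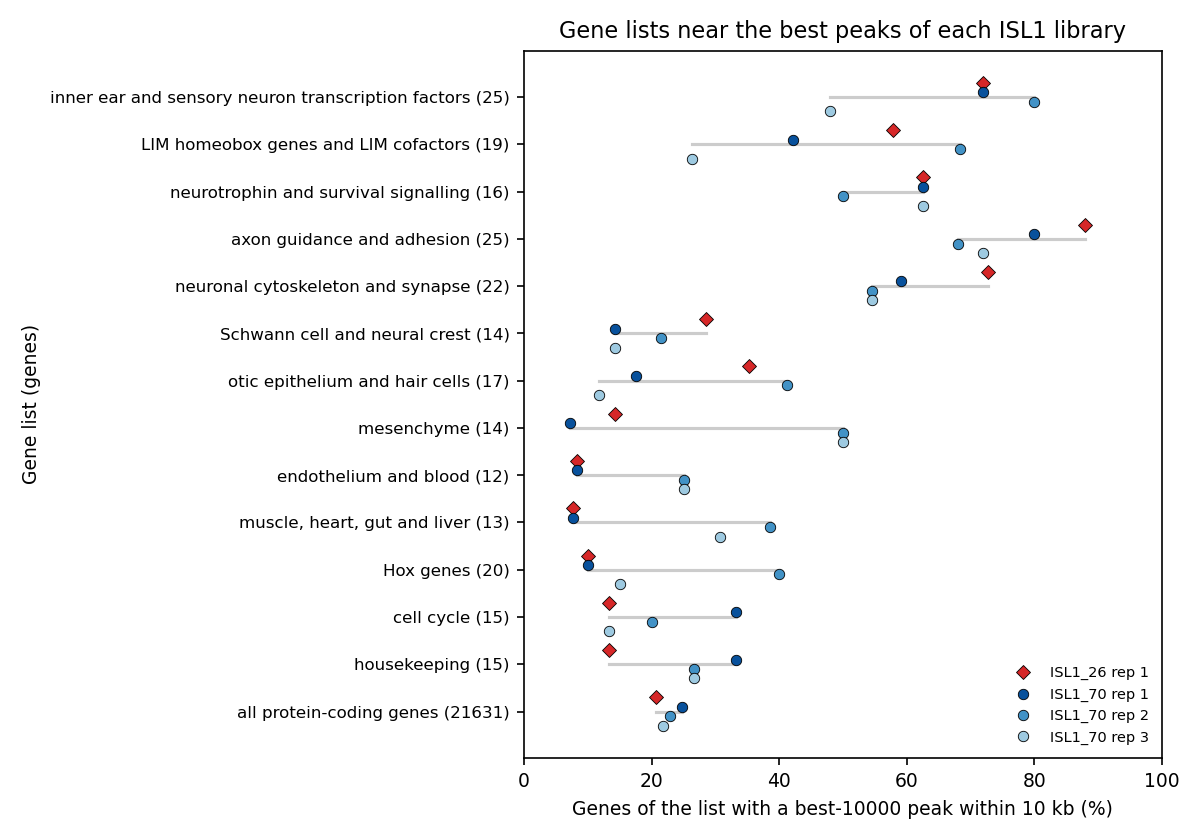
Share of the genes of each list (vertical axis, number of genes in brackets) with a best-10000 peak within 10 kb (horizontal axis, percent); diamonds are ISL1_26 and circles ISL1_70 replicates 1 to 3, set at slightly different heights so that equal values can be seen, and grey lines join the lowest and the highest library. The bottom row is the background over all protein-coding genes, between 20.7% and 24.7%.

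By class, 12 of the 25 transcription factor genes had an ISL1_26 only region (48%, against 15.9% of all genes), 3 an ISL1_70 only region (12.0%, against 2.9%) and 8 a region of the class both (32.0%, against 3.78%). The 3 classes differ in size, so the counts are to be read against those shares of all genes. Runx1, which encodes a factor of nociceptive sensory neurons, had 2 regions of the class both, the better one at ranks 43, 63, 90 and 227 in ISL1_26 and ISL1_70 replicates 1 to 3. Ebf2 had a region at ranks 172, 81, 1286 and 111. Ebf3 had 3 ISL1_26 only regions, the best at rank 905 with no peak in any ISL1_70 list. Nhlh2, which encodes a basic helix-loop-helix factor, had an ISL1_70 only region at a gene end (chr3:102009931-102010825), at ranks 939 and 2305 in replicates 1 and 2, rank 19549 in replicate 3 and rank 22734 in ISL1_26. Runx3 had one at ranks 4982 and 2743 in replicates 1 and 2, with ISL1_26 at rank 26699.

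Among LIM genes, 10 of 19 had an ISL1_26 only region (52.6%), 1 an ISL1_70 only region (5.26%) and 1 a region of the class both (5.26%), against 15.9%, 2.9% and 3.78% of all genes. The last 2 were the same gene: Lmo1, a LIM-only cofactor gene, held a region of the class both at ranks 646, 136, 647 and 48 and an ISL1_70 only region at ranks 4387 and 6122 in replicates 1 and 3. Ldb2 and Ssbp3, genes of the cofactor complex, had ISL1_26 only regions at ranks 3462 and 3605. For Ldb2 ISL1_70 replicate 1 had a peak at rank 11317, and for Ssbp3 no ISL1_70 list had one.

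Receptor genes of neurotrophins and axon guidance had regions of more than one class. Of 16 neurotrophin and survival genes 8 had an ISL1_26 only region (50%), 0 an ISL1_70 only region and 5 a region of the class both (31.2%), beside the same shares of all genes. Ngfr, which encodes the low-affinity neurotrophin receptor, had a region of the class both at ranks 924, 2055 and 2129 in ISL1_26 and ISL1_70 replicates 1 and 3, with none in replicate 2. Of 25 axon guidance genes 17 had an ISL1_26 only (68.0%), 3 an ISL1_70 only (12.0%) and 11 a region of the class both (44.0%). Unc5c, a netrin receptor gene, had 8 ISL1_26 only regions and 4 of the class both, the best of the latter at ranks 202, 46, 39 and 852. Ephb2, an ephrin receptor gene, had one at ranks 143, 154, 130 and 1820. Slit3, a guidance ligand gene, had an ISL1_70 only region at ranks 4443 and 636 in replicates 1 and 3, with ISL1_26 at rank 12022.

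Of 22 cytoskeleton and synapse genes 12 had an ISL1_26 only region (54.5%, against 15.9% of all genes), 1 an ISL1_70 only region (4.55%, against 2.9%) and 6 a region of the class both (27.3%, against 3.78%). Gap43, a growth cone gene, had a region of the class both at ranks 322, 772, 791 and 449. Mapt, the gene of the microtubule protein tau, had one 0.863 kb from a gene end at ranks 379, 2237, 9638 and 310 and an ISL1_26 only region at rank 681. Map1b had the ISL1_70 only region, at ranks 4607 and 406 in replicates 1 and 3. In the lists of other tissues a region of the class both was at 1 of 17 otic genes, against 3.78% of all genes. This gene was Jag1 (ranks 1210, 2875 and 6195 in ISL1_26 and ISL1_70 replicates 1 and 3). The class was at 0 of 14 Schwann cell, 14 mesenchyme, 12 endothelium and 13 muscle, heart, gut and liver genes. Lists this short cannot show a share below 3.78%. ISL1_26 only regions were at 5 of 17 otic (29.4%) and 4 of 14 Schwann cell genes (28.6%), against 15.9% of all genes. They were at 2 of 14 mesenchyme, 1 of 12 endothelium and 1 of 13 muscle, heart, gut and liver genes.

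Few regions had a summit in a promoter window, so the share with CTAATG in each class is a description from few windows, and no test was made. Summits lay in a window in 215 of the 6246 ISL1_26 only, 38 of the 799 ISL1_70 only and 37 of the 1543 regions of the class both. The window held CTAATG on either strand in 15 (6.98%), 5 (13.2%) and 7 (18.9%) of them, against 7.34% of all 32619 windows. TAATTA was in 3.72%, 5.26% and 5.41%, against 5.25%, and the spaced pair in 1, 0 and 0 windows, against 0.491%. Matches of these motifs can share the letters TAAT and so overlap. The median share of G and C was 62%, 64% and 55%, against 53% over all windows, and its part in the motif shares was not tested. A match describes letters in a window and not a bound site.

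The CTAATG matches of the class both are shown with up to 30 bases on each side, since this class had the highest share of windows with the motif, from 7 of 37 windows. They were chosen after their values were seen. The match in capitals reads CTAATG on the gene's strand or CATTAG where it lies on the other.
Gm35104, chr12:12765791-12765856, plus strand: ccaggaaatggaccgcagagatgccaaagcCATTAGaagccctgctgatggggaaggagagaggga
Gm35880, chr1:64121397-64121462, plus strand: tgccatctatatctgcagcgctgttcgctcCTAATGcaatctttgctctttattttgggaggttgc
Gm51646, chr1:132559410-132559475, plus strand: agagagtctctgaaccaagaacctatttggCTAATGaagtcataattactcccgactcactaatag
Gm32633, chr7:63986593-63986658, plus strand: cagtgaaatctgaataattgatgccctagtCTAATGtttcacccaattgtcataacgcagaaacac
Smc6, chr12:11265768-11265833, plus strand: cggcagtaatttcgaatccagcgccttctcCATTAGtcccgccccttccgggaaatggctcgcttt
Tubd1, chr11:86544838-86544903, plus strand: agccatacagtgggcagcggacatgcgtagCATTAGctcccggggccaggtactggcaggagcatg
Gm52797 has both matches in its window above. It is the one of the 7 promoters whose region held best peaks of all 4 libraries, and each of the other 6 regions held best peaks of 3. The match lay 43 bp from the summit at Gm51646, 56 bp at Tubd1, 59 bp at Gm35104, 131 bp at Smc6, 166 bp at Gm35880 and 224 bp at Gm32633, and 71 and 103 bp away at Gm52797. Among the ISL1_26 only windows, the match nearest to a summit was at Fgf13 (chrX:59166169-59166234, minus strand), 6 bp from the summit of a peak at rank 4813, and is shown for comparison, also chosen after its values were seen.
Fgf13: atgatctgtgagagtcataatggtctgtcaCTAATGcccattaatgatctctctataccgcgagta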

How the data were processed

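CUT&Tag peak lists of 14 libraries were used, and 6 IgG libraries were not. Each list holds peaks in narrowPeak form, called per library with MACS2 against a control, per the peak names in the deposited files; which control and which options is not given in the sources used here. The fold enrichment and the −log10 p and −log10 q of each peak are the authors' deposited values. FastQC, Bowtie2, SEACR and the build mm10 are named in the submitters' processing notes. Read depth is not in the lists, so Wilson and Newcombe intervals (95%) cover counting error over peaks only.

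Peaks on chromosomes 1 to 19 and X were ranked by q-value and then fold. Marks were counted where a peak lay within 100 bp of a summit. Gene ends (either end, 21631 protein-coding genes) and promoter windows came from RefSeq GRCm38.p6, and all 227 genes of the 13 lists matched. Libraries were compared by exact permutation of 1 against 3. Python 3.11.15, numpy 2.4.6, pandas 2.3.3 and scipy 1.17.1 were used, and the code was tested on simulated data.

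Named were the 8 leading regions of each class by mean rank (10001 where an ISL1 library had none), the 4 genes with most regions, up to 2 members per list and class by rank of their leading region, Isl1 and Pou4f1, and up to 2 promoters per class. The sets held by exactly 2 libraries, the CTAATG stretches, the best 1000 peaks and the search of full lists were chosen after the values were seen. The members and lists were chosen with earlier results of these data known. A leading region and a list member that the rule names are not reported here.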

Additional observations from a re-analysis of the deposited data

How the results depend on the processing

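No paired analysis was possible because ISL1_26 has 1 library and shares only replicate number 1 with ISL1_70. Differences below are ISL1_26 minus ISL1_70 in percentage points, either between libraries (best peaks, or peaks found in a single library) or between the classes ISL1_26 only and ISL1_70 only; the cause of each change was not tested except where fewer peaks or libraries make the count smaller. Of 126 recomputed library comparisons 25 changed sign and the others kept it.

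The counts of ISL1_26 only, ISL1_70 only and both were 419, 205 and 312 with the best 1000 peaks, 2857, 471 and 959 with 5000, 13913, 1505 and 2419 with 20000, and 78545, 3740 and 4967 with full lists. The class both held 960 regions when summit windows of 100 bp had to overlap, and ISL1_70 only held 382 when ISL1_26 was searched in full. Genes with a region in the gene body alone numbered 2247 for ISL1_26 only and 404 for ISL1_70 only. With the best 1000 the class differences were −10.3 for H3K27ac, 0.611 for H3K4me3, 2.89 for POU4F1 and 1.82 for gene ends, and the library differences were −2.17 for H3K4me3 and −3.43 (single-library −7.31) for gene ends. With 5000 the class differences were 0.385 for H3K27me3, −3.63 for H3K4me3 and −0.00052 for gene ends, and the library differences −0.667 for H3K4me3 and −0.807 (single-library −0.327) for gene ends. With 20000 they were −3.68 for H3K27me3 and −8.22 for gene ends by class, and 0.419 for H3K4me3 in single-library peaks. With full lists, of unequal length, the library differences were −0.87 for H3K27ac, −0.609 for H3K4me3, −0.344 for POU4F1 and −0.57 (single-library −0.441) for gene ends, and −5.04 for H3K27me3 by class. For H3K4me3 in single-library peaks, where the reported difference was −0.0169, ranking by fold gave 0.416, summit windows 0.417 and marks over whole peaks 0.81. Summit windows gave class differences of −1.98 for H3K4me3 and −0.274 for gene ends, a distance of 0.2 kb gave −2.05 for gene ends, and the search of full lists gave −9.42 for H3K4me3.

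Leaving out 1 library at a time moved the overlap difference between 3.36 and 4.35, and the counts between 6609 and 7685 for ISL1_26 only, 181 and 420 for ISL1_70 only and 636 and 1127 for both, the lowest of the last 2 without ISL1_70 replicate 1. Library differences ran from 0.2 (without H3K27ac replicate 3) to 23.3 (without ISL1_70 replicate 1) for H3K27ac (single-library 0.162, without H3K27ac replicate 2, to 25.9, without ISL1_70 replicate 1), −2.55 to 0.245 (−3.01 to 0.473) for H3K27me3, −1.48 to 3.59 (−2.37 to 4.31) for H3K4me3, 0.533 to 6.84 (0.499 to 7.33) for POU4F1 and −1.67 to 2.89 (−2.15 to 3.74) for gene ends. Class differences ran from −26.1 (without ISL1_70 replicate 2) to −0.444 (without replicate 1) for H3K27ac, −1.76 to 0.631 (without replicate 2) for H3K27me3, −10.9 (without replicate 3) to 5.32 (without replicate 1) for H3K4me3, −9.0 (without replicate 3) to 0.153 (without POU4F1 replicate 1) for POU4F1 and −9.2 to 3.7 (without replicate 1) for gene ends.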

Other observations

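The 22405 regions of a single ISL1_70 library belong to no class compared above. H3K27ac in at least 2 libraries lay at 17.5% of them, POU4F1 replicate 1 at 3.55% and H3K27me3 in at least 2 libraries at 5.82%. ISL1_70 replicates 1, 2 and 3 gave 6401, 7796 and 8208 of them. In these peaks no histone list had a peak at the summit in 39.2%, 63.3% and 75.4% by replicate, against 38.8% in the single-library peaks of ISL1_26.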
